A study of Homo sapiens with 6 samples.

Results

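The interleukin 6 (IL6) family was examined in MDA-MB-231 cells through 10 genes, taken by gene name from the deposited count and FPKM values. The 10 genes are 4 ligands (IL6, IL11, LIF and CLCF1), 4 receptor chains (IL6ST, LIFR, OSMR and IL6R), the transcription factor STAT3 and its feedback inhibitor SOCS3. All 10 were found among the 58735 genes of the files, and all 10 passed the filter on low counts that left 15881 genes for testing. MDA-MB-231 is an established human triple-negative breast cancer line, labelled WT in both groups and cultured in DMEM with serum. The cells were stained with PKH26, a membrane dye that is diluted at each division, and were grown for 12 days without further staining before they were sorted. The brightest 1% formed the slow-cycling group (SCC), and cells of moderate brightness formed the rapid-cycling group (RCC), which the sample characteristics instead call low in dye. Each group had 3 replicates of this single line. Nothing in the labels says that they were separate cultures, so the p-values measure only the spread between these libraries, which may be technical.

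Cytokines of the IL6 family signal through receptor complexes that share the chain IL6ST, also called gp130. IL6 and IL11 first bind their own receptors (IL6R, IL11RA) and then pair IL6ST with itself, whereas LIF and CLCF1 use IL6ST together with LIFR, and oncostatin M uses IL6ST with OSMR or LIFR. The bound receptor activates Janus kinases, which phosphorylate STAT3, and STAT3 switches on genes that include SOCS3, whose product shuts the receptor off. In breast cancer cells the family is known for autocrine signalling through STAT3.

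The SCC libraries held 19498054 to 27831824 counts and the RCC libraries 17655855 to 22746267. SCC replicate 1 stood apart from the other libraries by GC content. Its median log2 deviation from the mean of the 6 libraries was -0.24 in the tenth of genes with the least GC and 0.41 in the tenth with the most, against -0.16 to 0.10 for the other libraries in both. Values without this library are given below for some of the genes. The 4 mesenchymal markers of the line summed to 1841 to 1874 CPM (counts scaled to a common library total) in SCC and 1609 to 1660 in RCC, with FN1 called higher (log2 fold change 0.49, edgeR adjusted p 0.0017) and VIM at 795 against 776 CPM. ESR1 and PGR had at most 16 and 3 counts in any library. ERBB2 was measured at 85.8 and 74.9 CPM.

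Among the 10 genes, IL6 was the only one called. A gene was called where the edgeR quasi-likelihood F test gave an adjusted p (Benjamini-Hochberg) under 0.05. By that rule 1 of the 10 was higher in SCC and 0 were lower. Over all tested genes, 1.69% were called higher and 0.378% lower. The median log2 fold change (SCC over RCC) of the 10 genes was 0.02, against 0.00 for all tested genes. An unadjusted p under 0.05 was reached by 1 of the 10 genes, IL6, against 11.4% of all tested genes that were higher and 8.27% that were lower by the same rule. DESeq2 also called 1 of the 10 higher and 0 lower. It called more genes in general, 480 higher and 170 lower, against 268 and 60 by edgeR.

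**Figure D1:**
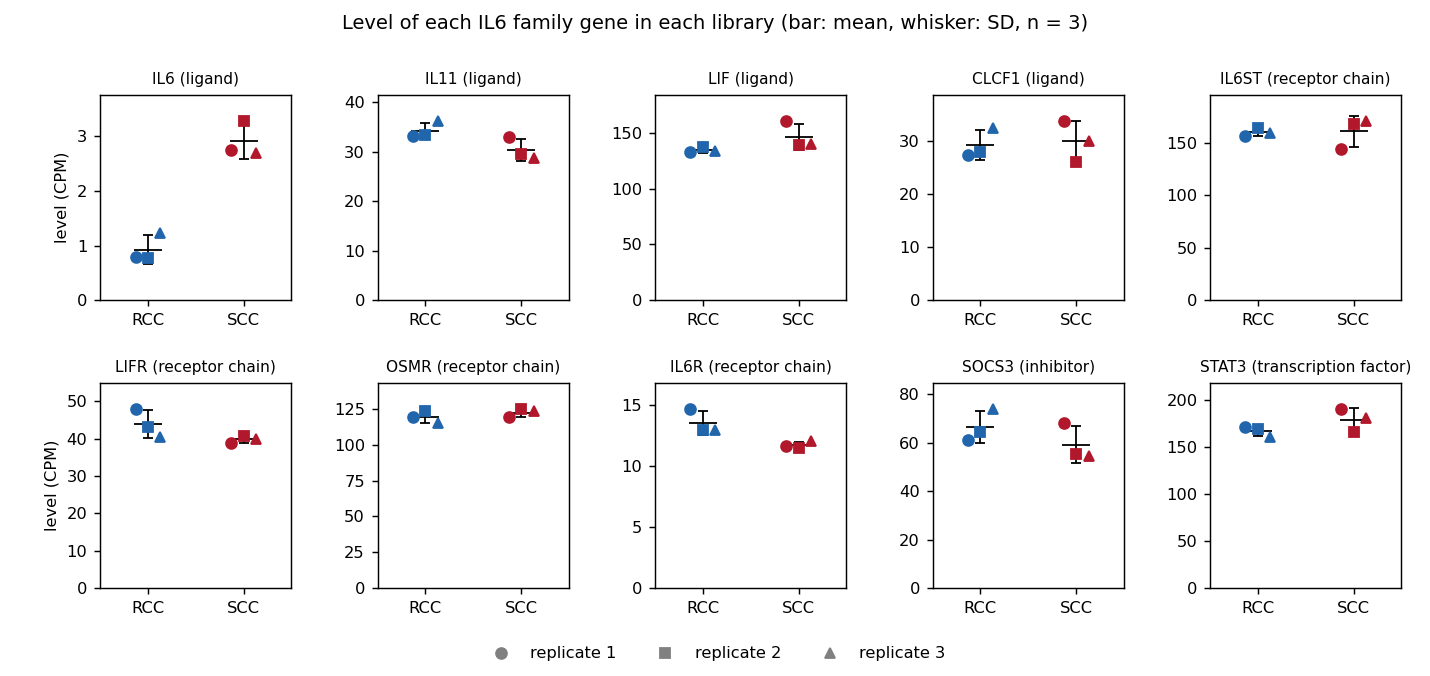
Level in CPM (vertical axis, from 0) of each of the 10 genes in the 3 RCC and 3 SCC libraries; symbols mark replicates, the bar the mean and the whisker the SD. The 3 SCC libraries lie above the 3 RCC libraries for IL6 (2.70 to 3.27 against 0.765 to 1.23 CPM), and the other panels show small differences relative to their level.

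IL6 is the founding ligand of the family, a cytokine of inflammation that also acts on the cells that secrete it. The gene (ENSG00000136244, chromosome 7, 22725884 to 22732002, plus strand) was at 2.74, 3.27 and 2.70 CPM in SCC replicates 1 to 3. In RCC replicates 1 to 3 it was at 0.782, 0.765 and 1.23 CPM. Every SCC library was above every RCC library, a pattern shared by 14.4% of the tested genes. IL6 had a log2 fold change of 1.66 ± 0.27 (SE, edgeR adjusted p 0.010), which is 3.16-fold with a 95% interval of 2.09 to 4.77. It ranked 67 of 15881 tested genes by fold change and 46 of the 268 called higher. In bulk RNA, more cells that express IL6 and more IL6 RNA per cell cannot be told apart.

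These levels rest on few reads. IL6 had 74, 64 and 57 counts in the SCC libraries and 18, 16 and 22 in the RCC libraries. The exact 95% Poisson intervals, which cover counting error only, reached down to 2.05 CPM in SCC replicate 3 and up to 1.86 CPM in RCC replicate 3, so the intervals of the groups did not overlap. Without RCC replicate 1 or 2 the log2 fold change was 1.54 in each case and the gene was no longer called (edgeR adjusted p 0.092 and 0.068). Each of these fits called 99 genes higher in total, against 268 with all libraries. Without SCC replicate 1 the log2 fold change of IL6 was 1.70 (edgeR adjusted p 0.0016), in a fit that called 3.93% of all genes higher.

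Part of the IL6 locus is shared with other genes, and the use of strand in counting is not given in the sources used here. The antisense gene AC073072.1 shares 428 exonic bases with IL6 and had 1 to 11 counts per library. STEAP1B, on the opposite strand, shares 46 exonic bases and had 0 to 13 counts. Both were below the IL6 count of the same library in all 6.

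Leukocytes are a known source of IL6, so their markers were summed. The 7 leukocyte markers together reached 0.971 to 4.04 CPM in SCC and 0.565 to 0.956 CPM in RCC, ranges that nearly touch. Of the 7 markers, 6 stayed under 1 CPM in every library. PTPRC, the pan-leukocyte marker CD45 and the only one of the 7 that was tested, had 53, 5 and 15 counts in SCC and 4, 3 and 10 in RCC (log2 fold change 1.84, edgeR adjusted p 0.206). ITGAM had 26, 7 and 7 counts in SCC and 3, 3 and 2 in RCC. Its groups did not overlap, and 14.4% of the tested genes had every SCC library above every RCC library. CD14 overlapped, with 14, 7 and 7 counts in SCC and 5, 8 and 5 in RCC. CD68 had 0, 0 and 4 in SCC and 1, 5 and 0 in RCC. LYZ had 13, 0 and 0 in SCC and 0, 1 and 0 in RCC. CD3E and MS4A1 had 1 and 2 counts in SCC replicate 1 and 0 in the others. The leukocyte sums were 4.04, 0.971 and 1.57 CPM in SCC replicates 1 to 3 and 0.565, 0.956 and 0.951 CPM in RCC replicates 1 to 3. The sum of SCC replicate 2 was thus nearly equal to those of RCC replicates 2 and 3. Without SCC replicate 1 the IL6 log2 fold change was 1.70. The 5 fibroblast markers summed to 23.1 to 28.4 CPM in SCC and 18.6 to 22.2 in RCC, carried by COL1A1 and PDGFRB, with at most 5 counts each for COL1A2, DCN and LUM. Sums of epithelial markers were also higher in SCC without overlap (688 to 775 against 596 to 629 CPM), and those of endothelial markers overlapped. The part of these markers in the IL6 difference was not tested.

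The promoters of IL6 and IL11 are shown because these ligands stood at opposite ends of the ligand group, the first called higher and the second with the lowest fold change. Each line gives the 250 bases before the RefSeq start (GRCh38.p14), read 5′ to 3′ on the gene's strand, with every match to the motifs listed next in capitals. The windows are chr7:22726950-22727199 (plus strand), which lies inside the deposited span of IL6, and chr19:55370464-55370713 (minus strand), which ends at the deposited start of IL11.
IL6: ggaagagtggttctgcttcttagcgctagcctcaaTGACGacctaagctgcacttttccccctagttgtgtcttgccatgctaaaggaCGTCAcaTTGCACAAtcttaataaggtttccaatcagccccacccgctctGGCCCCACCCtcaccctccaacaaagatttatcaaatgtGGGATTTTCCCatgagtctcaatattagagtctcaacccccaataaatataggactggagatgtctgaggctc
IL11: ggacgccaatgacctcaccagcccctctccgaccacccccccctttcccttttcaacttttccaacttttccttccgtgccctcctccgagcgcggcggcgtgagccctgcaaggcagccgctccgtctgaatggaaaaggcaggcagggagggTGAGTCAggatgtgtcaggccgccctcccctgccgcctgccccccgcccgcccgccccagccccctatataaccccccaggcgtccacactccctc

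The motifs were searched on both strands in windows from 250 bases before to 50 after the start. They were AP-1 (TGANTCA), the cAMP response element (TGACGTCA) and its core (TGACG), STAT (TTCNNNGAA), C/EBP (TTGCNNAA), NF-kB (GGG and CC separated by any 5 bases) and the TATA box (TATAAA). The IL6 window held the cAMP core at -215 and -162, a C/EBP match at -155 and NF-kB matches at -112, -73 and -72, the last pair overlapping. Its AP-1, STAT and TATA patterns were not matched in these letters. The IL11 window held 1 AP-1 match, from -96 to -90, and no other. Of all 35116 promoter windows, 24.6% held the cAMP core, 7.71% the AP-1 pattern, 10.5% the C/EBP pattern, 7.66% the STAT pattern and 58.7% the loose NF-kB pattern. Windows were found for 8 of the 10 genes, not for LIF or CLCF1, and the AP-1 pattern was also present in those of OSMR and IL6R. The motifs of the IL6 window were found in uncalled genes too. The cAMP core was also in SOCS3 and STAT3, the C/EBP pattern also in LIFR and OSMR, and the NF-kB pattern in 7 of the 8 genes.

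IL11, a ligand known from bone metastasis of breast cancer, was not called. The gene (ENSG00000095752, chromosome 19, 55364389 to 55370463) was at 32.9, 29.5 and 28.8 CPM in SCC and at 33.2, 33.5 and 36.1 CPM in RCC. Every SCC library was below every RCC library, as for 13.4% of all tested genes, but the closest values differed by less than the spread within either group. Its log2 fold change was -0.17 ± 0.09 (SE, edgeR adjusted p 0.30), and -0.23 when SCC replicate 1 was left out (0.097). When GC content entered the fit as an offset per gene and library, it was -0.27 and IL11 was called lower (adjusted p 0.036). In that setting 3.29% of all genes were called higher and 1.54% lower.

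LIF, which holds stem cells undifferentiated in culture and signals through LIFR, was the most abundant ligand per length. The gene (ENSG00000128342, chromosome 22, 30240447 to 30246851) was at 160, 139 and 140 CPM in SCC and 133, 138 and 134 CPM in RCC. SCC replicate 1 was the high library, and the other SCC libraries lay just above the RCC range. LIF had a log2 fold change of 0.12 ± 0.07 (SE, edgeR adjusted p 0.373), with 0.05 when SCC replicate 1 was left out and 0.00 under the GC offset. The antisense gene AC004264.1 shares 175 exonic bases with LIF and had 19 to 78 counts, the highest in SCC replicate 1.

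CLCF1, a ligand that acts through CNTFR, IL6ST and LIFR, showed no direction. The gene (ENSG00000175505, chromosome 11, 67364168 to 67374177) was at 33.7, 26.0 and 30.0 CPM in SCC and 27.4, 27.96 and 32.5 CPM in RCC. The groups overlapped, with the highest and the lowest of the 6 values both in SCC. CLCF1 had a log2 fold change of 0.03 (edgeR adjusted p 0.885, 95% interval -0.21 to 0.28), which was below 0 without SCC replicate 1 (-0.06), RCC replicate 1 (-0.02) or RCC replicate 2 (0.00 after rounding).

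IL6 thus took a larger share of the ligand transcripts in SCC while staying the smallest of the 4. Per length, IL6 made up 1.87, 2.60 and 2.09% of the summed FPKM of the 4 ligands in SCC replicates 1 to 3 and 0.628, 0.599 and 0.924% in RCC. LIF made up 56.4 to 57.7% in SCC and 52.5 to 56.2% in RCC. The FPKM of LIF was 22.2 to 30.4 times that of IL6 in SCC and 56.8 to 93.8 times in RCC.

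None of the 4 receptor chains was called, with log2 fold changes from -0.21 to 0.04. IL6ST, the shared signal-transducing chain (ENSG00000134352, chromosome 5, 55935095 to 55994993), was at 144, 168 and 170 CPM in SCC and 157, 164 and 160 CPM in RCC. SCC replicate 1 was its lowest library, and the RCC values lay between the SCC values. Its log2 fold change was 0.01 (edgeR adjusted p 0.966, 95% interval -0.16 to 0.18), and its sign changed in 8 of 17 alternatives. It was 0.08 when SCC replicate 1 was left out and 0.15 under the GC offset (adjusted p 0.075).

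OSMR, the chain that binds oncostatin M together with IL6ST (ENSG00000145623, chromosome 5, 38845858 to 38945596), was at 119, 125 and 123 CPM in SCC and 119, 124 and 115 CPM in RCC. The ranges overlapped, with RCC replicate 3 below every SCC library, and the log2 fold change was 0.04 (edgeR adjusted p 0.783). It was 0.06 when SCC replicate 1 was left out and 0.08 under the GC offset. The gene shares 229 exonic bases with RICTOR on the opposite strand, which had 1511 to 1950 counts, so its level is uncertain to that extent.

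LIFR, the chain used by LIF and CLCF1 (ENSG00000113594, chromosome 5, 38474963 to 38608354), was at 39.0, 40.7 and 39.9 CPM in SCC and 47.9, 43.2 and 40.6 CPM in RCC. SCC replicate 2 and RCC replicate 3 overlapped. LIFR had a log2 fold change of -0.14 (edgeR adjusted p 0.369) and 0.02 with the GC offset. The antisense gene LIFR-AS1 shares 629 exonic bases with it and had 1 to 22 counts.

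IL6R, the chain that binds IL6 itself (ENSG00000160712, chromosome 1, 154405193 to 154469450), was at 11.6, 11.5 and 12.0 CPM in SCC and 14.6, 12.95 and 12.98 CPM in RCC. Every SCC library was below every RCC library, a pattern shared by 13.4% of all tested genes. At -0.21 ± 0.11 (SE, edgeR adjusted p 0.301), its log2 fold change was the lowest of the 10 genes, and was not past the threshold under any of the 17 alternatives. IL6R and IL6 therefore had fold changes of opposite sign, of which that of IL6 alone passed the test.

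**Figure D2:**
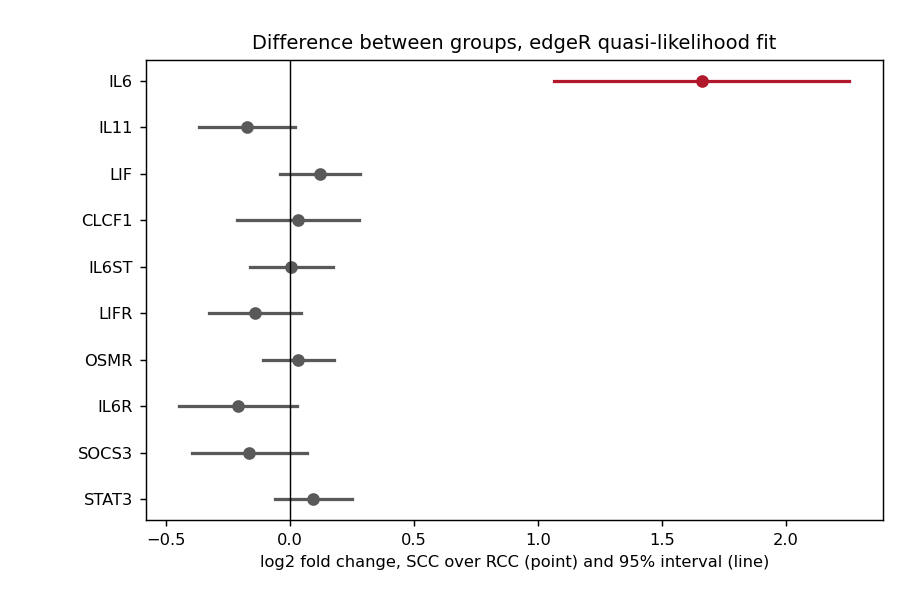
Log2 fold change of SCC over RCC (horizontal axis) for each gene, with its 95% interval from the edgeR fit, not adjusted for the number of genes. The interval of IL6 runs from 1.06 to 2.25, and those of the other 9 genes include 0 and lie between -0.45 and 0.28.

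STAT3, the transcription factor that the receptors activate (ENSG00000168610, chromosome 17, 42313324 to 42388568), was at 190, 165 and 180 CPM in SCC and 171, 169 and 160 CPM in RCC. The groups overlapped, with SCC replicate 2 inside the RCC range. STAT3 had a log2 fold change of 0.10 ± 0.07 (SE, edgeR adjusted p 0.462), and 0.05 without SCC replicate 1. Counts of STAT3 RNA do not measure its phosphorylation.

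SOCS3 is induced by STAT3 and is often read as a marker of its activity. The gene (ENSG00000184557, chromosome 17, 78356778 to 78360077) was at 68.0, 55.2 and 54.4 CPM in SCC and 61.1, 64.4 and 73.7 CPM in RCC. SCC replicate 1 lay inside the RCC range and the other SCC libraries below it. SOCS3 had a log2 fold change of -0.16 ± 0.10 (SE, edgeR adjusted p 0.400).

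The SOCS3 result rested on SCC replicate 1. Without that library its log2 fold change was -0.27 ± 0.07 (SE), and SOCS3 was called lower in SCC (edgeR adjusted p 0.020), as were 2.1% of all genes in that fit. With the GC offset and all 6 libraries it was -0.34 (adjusted p 0.0062). Leaving out any other single library kept it negative and uncalled, from -0.23 to -0.09. SOCS3 had the highest GC content of the 10 genes, at 59.99%. The ratio of SOCS3 to STAT3 FPKM was 1.16, 1.07 and 0.974 in SCC and 1.148, 1.23 and 1.48 in RCC, which overlaps through SCC replicate 1 and RCC replicate 1.

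**Figure D3:**
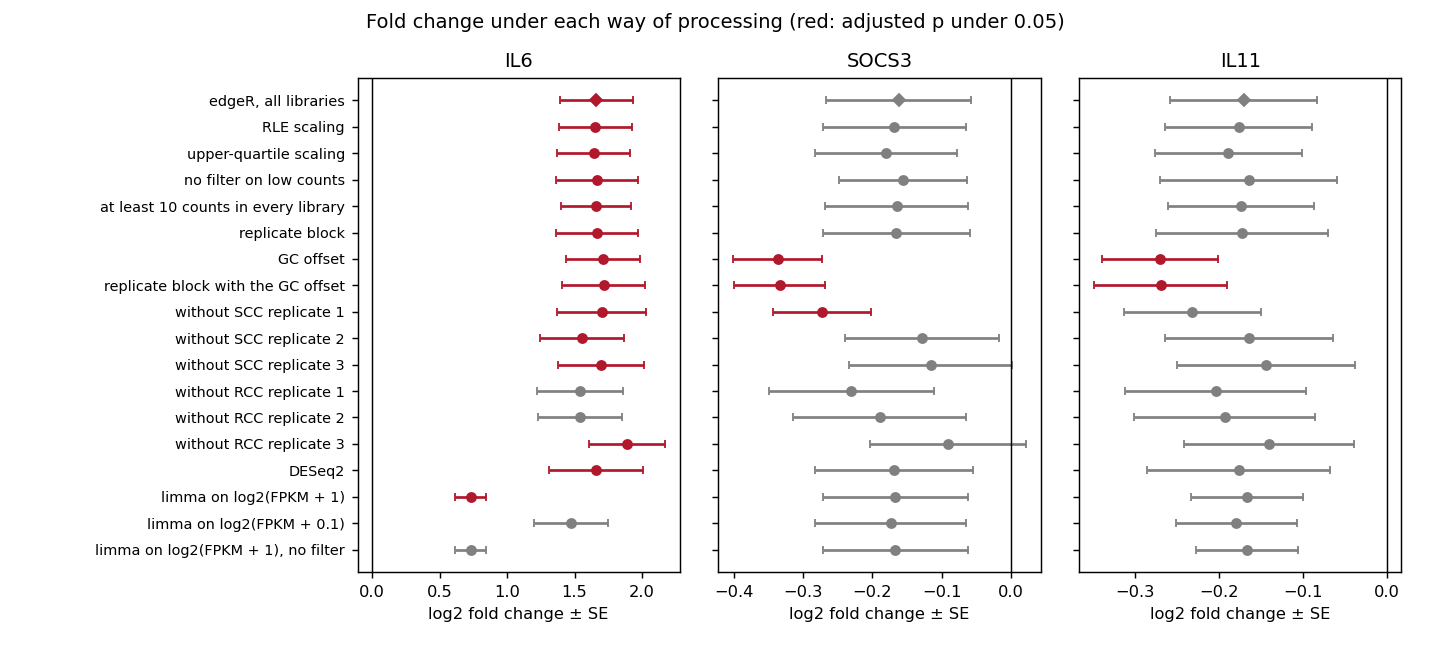
Log2 fold change with its standard error (horizontal axis) of IL6, SOCS3 and IL11 under each way of processing (vertical axis), with red for an adjusted p under 0.05. IL6 is positive throughout, from 0.73 to 1.89, and SOCS3 negative throughout, from -0.34 to -0.09, where the calls for SOCS3 come from the fit lacking SCC replicate 1 and from both GC offset fits.

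SCC replicate 1 tended to be the highest SCC library for genes rich in GC and the lowest for genes poor in GC. It was the highest SCC library for LIF (GC content 56.9%), CLCF1 (57.1%), IL11 (55.6%), SOCS3 (59.99%) and STAT3 (50.4%), and the lowest for IL6ST (36.6%), LIFR (36.2%) and OSMR (45.2%). For IL6 (44.5%) and IL6R (51.8%) it lay between the other SCC libraries, so the order by GC content was not strict. The part of GC content in these differences was not tested beyond the offset.

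Compared per length over all 6 libraries, the 10 genes covered a wide range of levels. LIF was highest at a mean of 35.3 FPKM (33.2 to 39.8), with no overlap with the next gene. SOCS3 (22.8), STAT3 (19.5), IL6ST (17.2), OSMR (16.8), CLCF1 (14.9) and IL11 (12.0) followed, and each of these neighbours overlapped in range with the next. LIFR (3.51), IL6R (1.95) and IL6 (0.920) were lower, and their ranges did not overlap. The shared chain exceeded the chain that binds IL6: IL6ST FPKM was 8.62 to 10.2 times that of IL6R in SCC and 7.43 to 8.79 times in RCC. Of the chains that pair with IL6ST, OSMR exceeded LIFR: its FPKM was 5.05 to 5.12 times as high in SCC and 4.11 to 4.75 times in RCC.

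**Figure D4:**
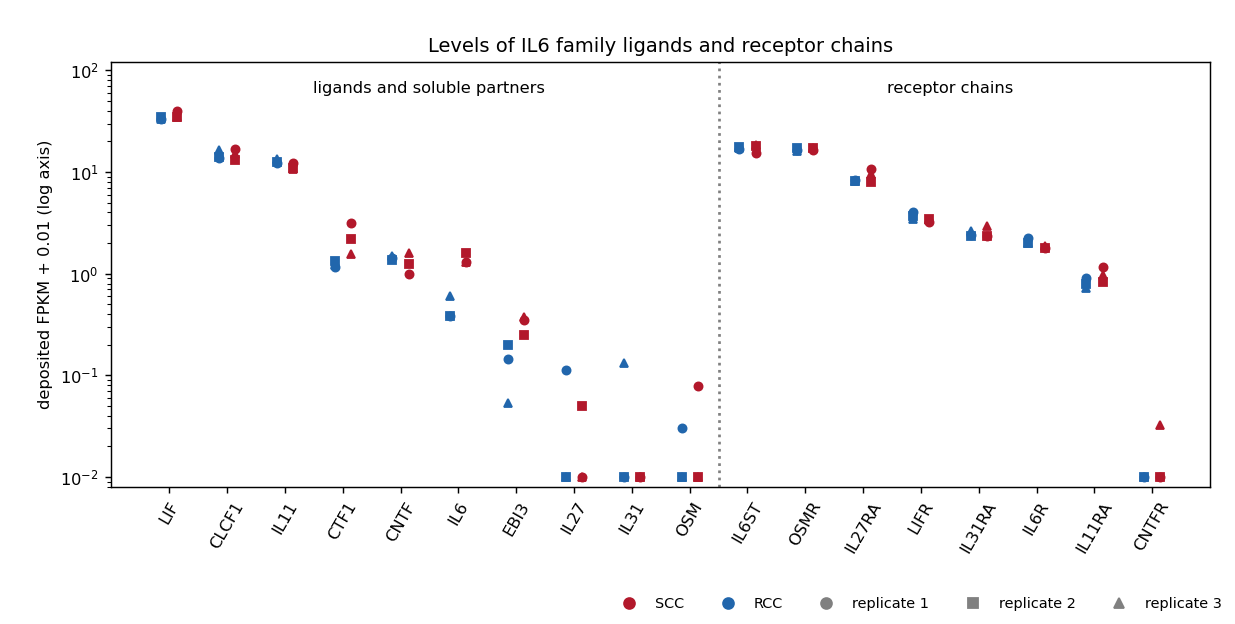
Deposited FPKM plus 0.01 on a log axis (vertical) of the ligands, soluble subunits and receptor chains examined, one point per library, red for SCC and blue for RCC. LIF leads the ligands, IL6ST and OSMR overlap at the top of the receptor chains, and IL27, IL31, OSM and CNTFR lie at or near the bottom in every library.

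Other ligands of the family were lower per length than LIF, CLCF1 and IL11, but not all were lower than IL6. CTF1 and CNTF averaged 1.77 and 1.34 FPKM over the 6 libraries, against 0.920 for IL6. In SCC alone the CNTF mean (1.26) was below that of IL6 (1.39). Of 6 further ligands and subunits examined, 2 passed the filter and 0 were called in either direction, against 1.69% higher and 0.378% lower over all tested genes. CTF1 (cardiotrophin 1) had the smallest p, at 5.34, 3.68 and 2.56 CPM in SCC and 1.96, 2.20 and 2.01 CPM in RCC. CTF1 was not called (log2 fold change 0.92, edgeR adjusted p 0.109), except when the filter on low counts was dropped (0.0058). SCC replicate 1 was its highest library, and without it the log2 fold change was 0.60 (adjusted p 0.214). EBI3, a subunit of interleukin 27, was below the filter with 12, 6 and 10 counts in SCC and 4, 5 and 1 in RCC. OSM, IL27 and IL31 had at most 4, 3 and 2 counts in any library, and 3 counts correspond to 0.111 to 0.168 CPM at these depths.

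Further receptor chains, kinases and STATs gave no calls. Over all tested genes 1.69% were called higher and 0.378% lower, so lists this short would hold few calls or none at those shares. By unadjusted p under 0.05 the shares were 11.4% and 8.27%. Of 4 other receptor chains, 3 were tested and 0 were called. IL27RA had the smallest p (28.1 ± 4.04 CPM in SCC against 24.3 ± 0.33 in RCC, SD, n = 3, edgeR adjusted p 0.299). Its log2 fold change was 0.21, or 0.11 when SCC replicate 1 was left out and 0.07 under the GC offset. CNTFR, which CLCF1 needs, had at most 1 count. All 4 Janus kinases were tested, with 0 called, 0 past an unadjusted p of 0.05 and a median log2 fold change of 0.09. JAK2 had the smallest p among them (log2 fold change 0.15, edgeR adjusted p 0.515), with 0.25 when SCC replicate 1 was left out (0.228). Of 5 further STATs examined, 0 were called and 0 were past an unadjusted p of 0.05, STAT4 having the smallest p (0.67, edgeR adjusted p 0.35) at 8 to 21 counts per library. The shedding proteases ADAM10 and ADAM17, which can release IL6R from the cell surface, were not called either (ADAM10 -0.12, edgeR adjusted p 0.307, and 0.00 with the GC offset).

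Among 16 other inhibitors of the pathway, 15 were tested, with 0 called higher and 1 called lower. Of all tested genes, 1.69% were called higher and 0.378% lower. SOCS4, a relative of SOCS3 linked to EGF receptor turnover, was at 95.1, 114 and 105 CPM in SCC and 140, 133 and 130 CPM in RCC. All 3 SCC libraries were below the RCC range, as for 13.4% of all tested genes, with SCC replicate 1 lowest. SOCS4 had a log2 fold change of -0.36 ± 0.08 (SE, edgeR adjusted p 0.047). The call was lost without SCC replicate 3 (adjusted p 0.124), RCC replicate 1 (0.231), RCC replicate 2 (0.181) or RCC replicate 3 (0.166). Over all genes, the same fits called 19, 8, 14 and 11 lower, against 60 with all libraries. With the library that was lowest, SCC replicate 1, left out the log2 fold change of SOCS4 was -0.29 (8.6e-04), and under the GC offset -0.19 (0.034), still called. The median of the list was -0.07. An unadjusted p under 0.05 was reached by 1 higher and 2 lower genes, against 11.4% and 8.27% of all tested genes.

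Regulators of IL6 mRNA stability included 2 of the clearer differences. All 10 genes of this list were tested, 2 were called higher and 0 lower, against 1.69% and 0.378% of all tested genes. This list too was chosen with earlier results of these data known. ZC3H12A encodes Regnase-1, a nuclease that degrades IL6 mRNA. It was at 21.8, 18.5 and 19.3 CPM in SCC and 7.43, 6.69 and 9.40 CPM in RCC, a log2 fold change of 1.35 ± 0.14 (SE, edgeR adjusted p 4.0e-04). ZFP36 encodes tristetraprolin, which binds AU-rich elements of cytokine mRNAs and promotes their decay. It was at 26.1, 18.3 and 19.0 CPM in SCC and 8.52, 8.84 and 8.28 CPM in RCC, a log2 fold change of 1.31 ± 0.15 (SE, adjusted p 7.5e-04). For both genes every SCC library was at least 18.3 CPM and every RCC library at most 9.40 CPM. Both stayed called in each fit without 1 library. Leaving out SCC replicate 1 gave log2 fold changes of 1.28 for ZC3H12A and 1.12 for ZFP36. ARID5A, which protects IL6 mRNA from Regnase-1, was not called (0.12, edgeR adjusted p 0.745), and the list median was 0.14.

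Of 30 genes described as STAT3 targets, 19 were tested, 6 were called higher and 0 lower. By unadjusted p under 0.05, 14 were higher and 0 lower, and 15 of the 19 had every SCC library above every RCC library. The shares over all tested genes were 1.69% called higher and 0.378% called lower. By unadjusted p they were 11.4% higher and 8.27% lower, and 14.4% had every SCC library above every RCC library. The list was chosen with earlier results of these data known, so its direction is not independent evidence. SOCS3, which STAT3 also induces, is not in the list. It did not share this direction, with a log2 fold change of -0.16 (edgeR adjusted p 0.400). TNFAIP3, an inhibitor of NF-kB signalling, was at 31.8, 26.8 and 32.1 CPM in SCC and 6.52, 5.64 and 5.87 CPM in RCC, a log2 fold change of 2.33 (edgeR adjusted p 1.6e-06). For JUNB, an AP-1 subunit, the log2 fold change was 1.802 (edgeR adjusted p 5.5e-05), and for ICAM1, an adhesion receptor, 1.51 (0.0011). IRF1, a transcription factor of the interferon response, had 0.93 (0.0091). The survival kinase gene PIM1 was at 59.1, 47.1 and 49.4 CPM in SCC and 37.5, 39.1 and 37.7 CPM in RCC, with a log2 fold change of 0.45 (0.040). VEGFA, an angiogenic factor, had 0.39 (0.032).

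Part of these calls was lost when a single library was left out, in fits that called fewer genes in general. Over all genes, 99, 99 and 103 were called higher without RCC replicate 1, 2 and 3. Without SCC replicate 3 there were 179, against 268 with all libraries. IRF1 was not called without RCC replicate 1 (edgeR adjusted p 0.061) or 3 (0.055). PIM1 was not called without SCC replicate 3 (0.084), RCC replicate 1 (0.198), RCC replicate 2 (0.147) or RCC replicate 3 (0.177). VEGFA was not called without SCC replicate 3 (0.071), RCC replicate 1 (0.145), RCC replicate 2 (0.171) or RCC replicate 3 (0.149). TNFAIP3, JUNB and ICAM1 stayed called in each of the 6 fits that left out 1 library. Without SCC replicate 1 their log2 fold changes were 2.29, 1.63 and 1.45. Of the acute-phase genes that IL6 induces in liver, CRP was at 0 in all libraries, SERPINA3 and HP had at most 1 count each, and SAA1 had 16 to 43 counts. The list median was 0.39.

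**Figure D5:**
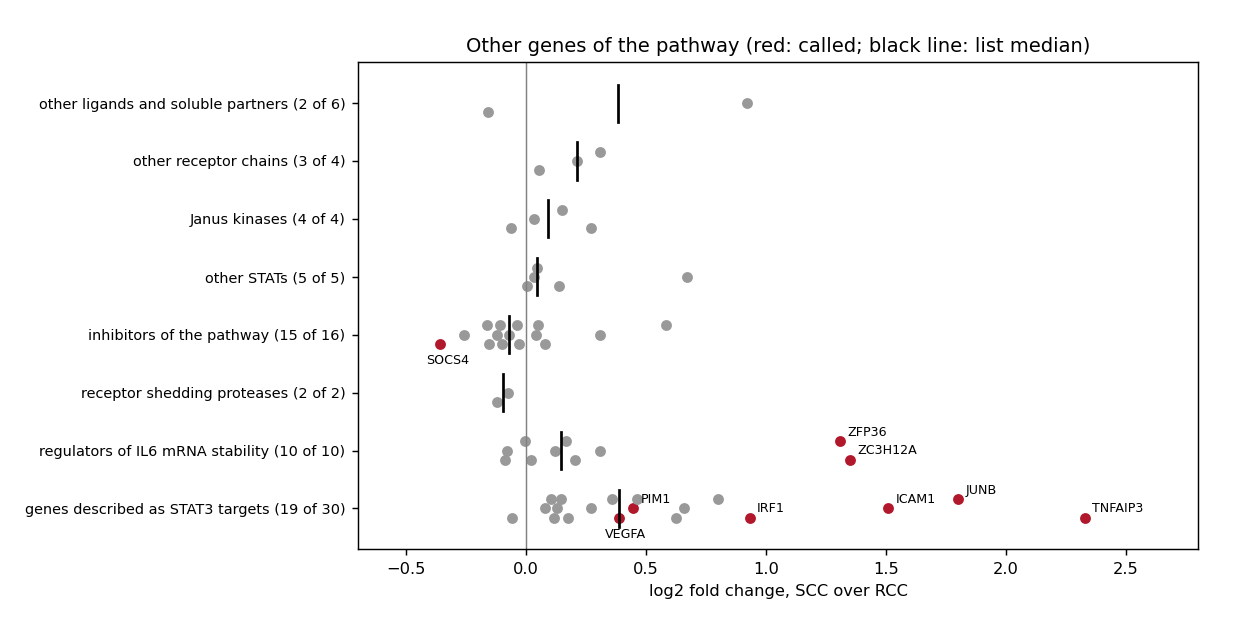
Log2 fold change of SCC over RCC (horizontal axis) of each tested gene in 8 lists of pathway genes (vertical axis, with the number tested of those listed), red for called genes, and a black line at the list median. Called genes lie in the lists of mRNA stability regulators (ZC3H12A, ZFP36), STAT3 targets (6 genes, 0.39 to 2.33) and inhibitors (SOCS4, -0.36).

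The genes whose pattern over the 6 libraries was most like that of IL6 were found by Pearson r of log2 CPM, among 10913 tested genes at a mean of at least 5 CPM. These correlations are given as a description, since all libraries share the group difference. ID2 (r = 0.998) was at 13.3, 15.1 and 12.2 CPM in SCC and 4.91, 4.97 and 7.22 CPM in RCC. RGS2 (r = 0.995) was at 9.496, 10.1 and 9.72 CPM in SCC and 4.26, 3.92 and 5.26 CPM in RCC. As for IL6, RCC replicate 3 was the highest RCC library for both. MYO5C (r = 0.991) had a smaller difference, with a log2 fold change of 0.24 (edgeR adjusted p 0.119). For LIF the closest genes were SAMD4B, MARK4 and SCAMP4 (r = 0.998, 0.997 and 0.996), all highest in SCC replicate 1. For IL11 they were POLR3E, PLEKHH1 and WDR91 (r = 0.990, 0.981 and 0.979), each with its highest value in RCC replicate 3.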

How the data were processed

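RNA-seq values from 6 libraries were used. The authors deposited whole-number counts together with FPKM for each gene, and the submitters' processing notes name HISAT2 2.0.5 and featureCounts 1.5.0-p3. The genome build, annotation and use of strand are not given in the sources used here. All 58735 rows matched the gene ID, position and strand of GENCODE release 29 (GRCh38). Each deposited FPKM value equalled count over gene length over 1 constant per library, within 1e-05. RNA came from TRIzol extracts and an NEBNext Ultra kit, per the labels' protocols.

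Counts were filtered with filterByExpr (minimum count 10), scaled by TMM and fitted with edgeR 4.0.16 (R 4.3.3, glmQLFit on group alone, two-sided F test). Benjamini-Hochberg adjustment ran over all 15881 tested genes and an adjusted p under 0.05 was called. The standard error is the log2 fold change over the square root of F. CPM uses TMM-scaled totals. No 2 libraries of a group agreed within sampling noise (chi-square per degree of freedom 3.28 to 28.5). On simulated counts, run on 15584 genes, 78.1% of genes with a log2 fold of 1 and 96.0% with 2 were recovered, and 9.57% of the calls were false (18).

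The family members and the 8 lists of pathway genes (77 genes) were chosen with earlier results of these data known. All 10 members are named, as are called list genes (up to 6 per list) or else the gene with the smallest p. The 3 genes most correlated with IL6, IL11 and LIF were added. DESeq2 1.42.0, limma 3.58.1 on log2(FPKM + 1) and log2(FPKM + 0.1), other scalings and filters, a block for replicate number, and fits leaving out 1 library were alternatives. A GC offset (lowess span 0.3, from the longest GENCODE transcript) was added after seeing the data. Same-numbered replicates correlated in their deviations at -0.01, 0.02 and -0.08. Promoters came from RefSeq (GRCh38.p14). Receptor protein sequences were not used here. Some items of the pathway lists are not reported here.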

Additional observations from a re-analysis of the deposited data

How the results depend on the processing

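IL6 kept a positive fold change under all 17 alternatives. It was not called on log2(FPKM + 0.1) with limma (log2 fold change 1.47, adjusted p 0.072) or on log2(FPKM + 1) without a filter (0.73, 0.172), and leaving out single libraries gave 1.54 to 1.89, uncalled without RCC replicate 1 or 2. In these settings 0 family members were higher, against 1 otherwise. The FPKM filter kept genes at 1 FPKM or more in at least 3 libraries. IL6 reached that level in SCC (1.30 to 1.57 FPKM) but not in RCC (0.371 to 0.592). It therefore entered the filtered FPKM fits only through its SCC values, also where it was called (log2(FPKM + 1), limma adjusted p 0.038). The GC offset (added once the data had been seen) gave 2 lower members, SOCS3 (-0.34) and IL11 (-0.27), and 2 with the replicate block as well (-0.33 and -0.27). Leaving out single libraries gave 0 to 1 higher and 0 to 1 lower members, with SOCS3 at -0.273 to -0.0908. Uncalled members changed sign near 0. CLCF1 was at -0.0908 with the GC offset and at -0.0909 with the block and that offset, and ranged from -0.0585 to 0.11 with libraries left out. IL6ST was at -0.0101 with upper-quartile scaling, at -0.0021 and -0.0024 on log2(FPKM + 1) and log2(FPKM + 0.1) and at -0.0021 without the FPKM filter, and ranged from -0.0449 to 0.0818 with libraries left out. LIFR was at 0.0179 with the GC offset and at 0.0181 with the block added. ADAM10 was at 0.0032 and 0.0022 in the same settings.

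Counts over all genes (268 higher, 60 lower) were 995 and 315 without a filter on low counts, 480 and 170 with DESeq2, and 522 and 245 with the GC offset. On FPKM they were 130 and 36 with a pseudocount of 1, 117 and 34 with 0.1, and 48 and 1 without a filter. Single libraries left out gave 99 to 642 higher and 8 to 343 lower genes. Whether equal replicate numbers share a culture or day is not given in the labels, and the correlations of their deviations were near 0 (-0.01, 0.02 and -0.08). Under the replicate block 350 genes were higher and 106 lower, and IL6 was at 1.67. The block with the GC offset gave 634 higher and 447 lower. Of 405 values of the 24 named genes under the alternatives, 350 kept direction and side of the threshold. What causes these shifts was not tested. IL6 rests on 16 to 74 counts per library, which limits its precision.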
